A study of Mus musculus with 6 samples.

Results

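The BCL2 family decides whether the mitochondrial outer membrane of a cell stays closed, which keeps the cell alive, or opens, which releases cytochrome c and starts the caspases. Survival proteins (BCL2, BCL-xL, MCL1) hold the effectors BAX and BAK in check, and the BH3-only proteins (BIM, BID, BAD, PUMA, NOXA) free or trigger the effectors when a cell is starved of cytokine, damaged or struck by a death ligand. In resting T helper cells, which live on signals through the IL-7 receptor and the T-cell receptor, BCL2 and MCL1 oppose BIM, and the balance between them sets how long naive and memory cells last. The transcripts of 10 genes of this family, Bcl2, Bcl2l1, Mcl1, Bax, Bak1, Bcl2l11, Bid, Bad, Bbc3 and Pmaip1, were matched by gene symbol in the platform annotation. A transcript cluster, the array's unit for 1 transcript, was named for 9 of the 10. Bax had no named cluster here and was not analysed. Each of the 9 had 1 cluster, among 23410 clusters with a gene symbol and 35556 on the array.

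The cells were CD4+TCRβ+ lymphocytes sorted from the inguinal, axillary and brachial lymph nodes of naive females aged 8 weeks, all on the C57BL/6J background and all from litters of both sexes. There were 3 pools of B6-ChrYSJL females, whose fathers carry the SJL Y chromosome on that background, and 3 pools of wild-type B6 females, with 5 mice in each pool. Females of either strain carry no Y chromosome, so the strains differed by design in the Y chromosome of their fathers. The comparison asks whether that leaves a trace in the resting cells of daughters. The consomic line was bred by sibling mating between backcrosses to B6. A difference between the colonies cannot be told apart from the paternal Y here. Each pool was measured on 1 Affymetrix Mouse Gene 1.0 ST array after amplification of 50 ng of RNA, and all levels below are the deposited log2 RMA signals.

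The arrays were alike, with medians of 6.41 to 6.44 and pairwise correlations of 0.991 to 0.993 across clusters. The T cell transcripts Cd3e and Cd4 averaged 12.5 and 11.5 in each strain, and the background level, set by olfactory and vomeronasal receptor transcripts, was 5.98. Of 5 natural killer cell markers 2 lay above it (Nkg7 at 7.81 over the 6 arrays and Eomes at 6.27) and 3 below it (Ncr1 at 4.49, Klrk1 at 4.95 and Klrb1c at 4.27). Of 6 myeloid markers 2 lay above it (Lyz2 at 7.18 and Itgam at 6.18) and 4 below it. Other lists lay mostly or wholly above it: 2 of 2 CD8 markers, 6 of 7 B cell markers, 5 of 5 stromal markers and 2 of 2 erythroid markers. The highest were Cd8b1 at 7.99, Cd74 at 8.16 among the B cell markers and Pecam1 at 10.0 among the stromal ones. The share of such cells in the pools was not measured. Differences are B6-ChrYSJL minus B6, fitted with limma over all 23410 clusters, and adjusted p-values are Benjamini-Hochberg values over all of them. With 3 pools a strain, an adjusted p under 0.05 was reached by 4 clusters, 0.0171% of those tested, and by none of the 9 BCL2 family transcripts. At an unadjusted p under 0.05, 1 of the 9 (Bcl2l1) was lower in B6-ChrYSJL, against 5.92% of all clusters, and 0 were higher, against 4.69% of all clusters. The values of the strains did not overlap for 2 lower members (Bcl2 and Bcl2l1), against 9.42% of all clusters, and for 1 higher member (Bbc3), against 7.68%. Counts this small among 9 genes do not set the family apart from the other transcripts on the array.

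All 9 transcripts lay above background in every pool, and the family was close to level between the strains. The log2 fold changes ran between −0.19 and 0.15 with a median of −0.01, against a median of −0.0036 over all clusters, and were negative for 6 genes and positive for 3. As a percentage of the B6 signal the extremes were Bcl2l1 at −12.5% and Bid at 11.0%.

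**Figure D1:**
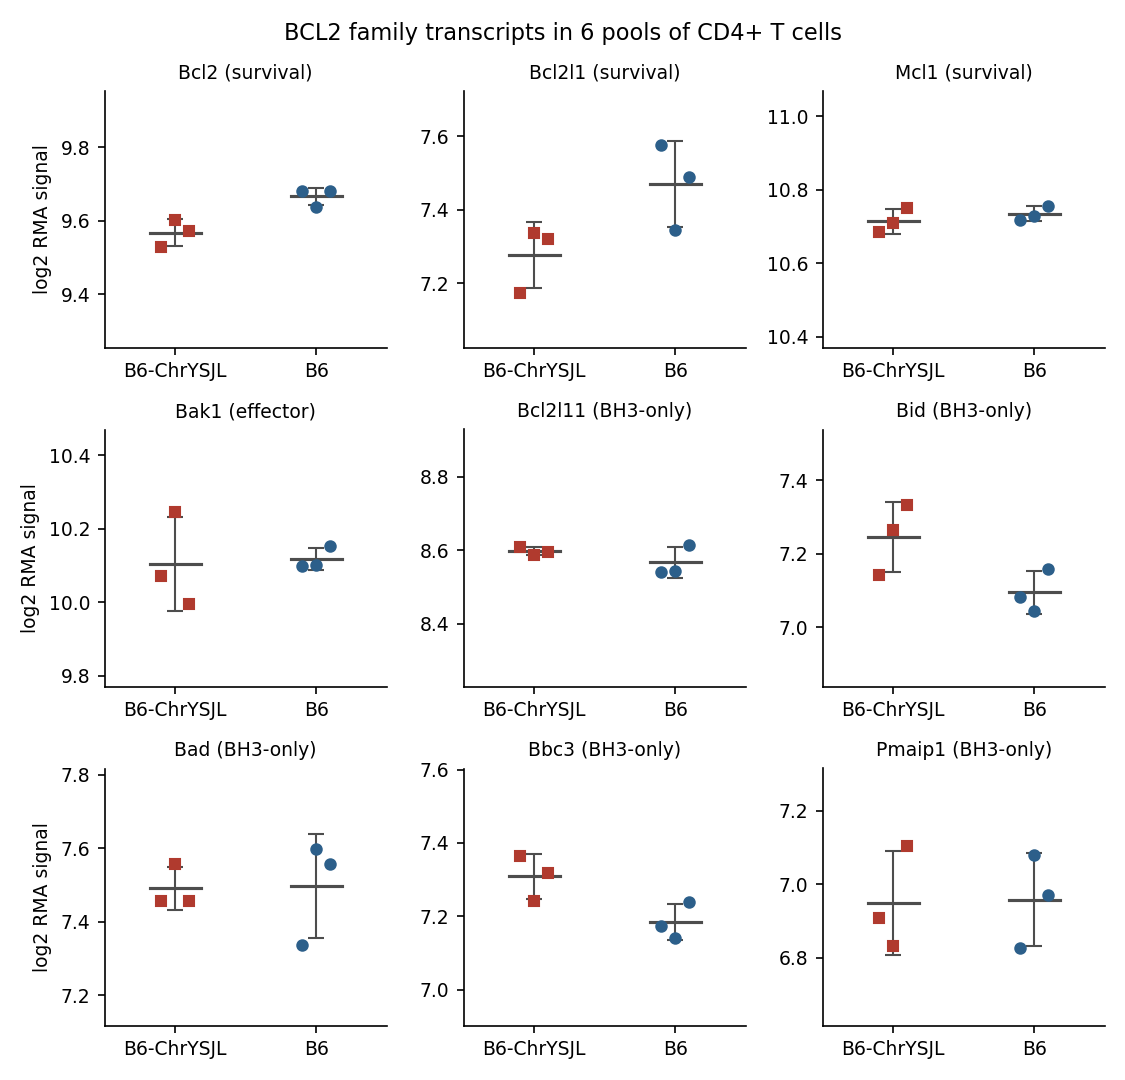
Log2 RMA signal (vertical axis) of the 9 BCL2 family transcripts in 3 B6-ChrYSJL pools (squares) and 3 B6 pools (circles), with the mean and SD of each strain; every panel spans the same number of log2 units around its own centre. Bcl2, Bcl2l1 and Bbc3 are the panels without overlap between the strains, and the gap is 0.037 for Bcl2, 0.0071 for Bcl2l1 and 0.0046 for Bbc3.

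The survival transcripts all had negative log2 fold changes, and that of Mcl1 was the closest to 0. Bcl2, which encodes the protein that gave the family its name and is kept up by IL-7 in resting T cells, had 9.53, 9.60 and 9.57 in the B6-ChrYSJL pools, against 9.68, 9.64 and 9.68 in the B6 pools. Every B6-ChrYSJL pool was thus below every B6 pool, but the distance between the nearest pools was 0.037, about as large as the SD of 0.036 among the B6-ChrYSJL pools. The log2 fold change was −0.10 (standard error 0.06, 95% interval −0.24 to 0.04, unadjusted p = 0.144 and adjusted p = 0.602 from limma). As a ratio the interval was 0.847 to 1.03.

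Bcl2l1, whose main product BCL-xL is induced when T cells are activated through CD28, had 7.173, 7.338 and 7.322 in the B6-ChrYSJL pools, against 7.577, 7.345 and 7.490 in the B6 pools. B6-ChrYSJL replicate 1 was the lowest and B6 replicate 1 the highest, and B6 replicate 2 lay just above the highest B6-ChrYSJL pool. The strains averaged 7.28 ± 0.09 in B6-ChrYSJL and 7.47 ± 0.12 in B6 (SD, n = 3 pools each), a log2 fold change of −0.19 (standard error 0.08, 95% interval −0.38 to −0.0015, unadjusted p = 0.0486 and adjusted p = 0.468 from limma). A change of this size or more was found in 12.0% of all clusters. The unadjusted p was 0.157 without B6-ChrYSJL replicate 1, 0.052 without B6-ChrYSJL replicate 2, 0.064 without B6-ChrYSJL replicate 3, 0.160 without B6 replicate 1 and 0.106 without B6 replicate 3, and 0.0184 without B6 replicate 2 (limma).

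Mcl1, whose short-lived protein restrains BAK and is needed by T cells at every stage, had 10.68, 10.71 and 10.75 in the B6-ChrYSJL pools, against 10.72, 10.73 and 10.76 in the B6 pools. The strains overlapped, and all 6 pools lay within a narrow band. The log2 fold change of −0.02 had a 95% interval of −0.16 to 0.12 (unadjusted p = 0.743, adjusted p = 0.927, limma), which as a ratio is 0.895 to 1.09.

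The effector measured here, Bak1, encodes the membrane-resident pore former that acts beside BAX. It had 10.07, 10.25 and 10.00 in the B6-ChrYSJL pools, against 10.10, 10.10 and 10.15 in the B6 pools. The highest and the lowest of the 6 values were both B6-ChrYSJL pools, replicates 2 and 3, so that the strains overlapped fully while their spread was unequal, with an SD of 0.13 in B6-ChrYSJL and 0.03 in B6. No test was made of this difference in spread. The log2 fold change was −0.01 (95% interval −0.19 to 0.17, adjusted p = 0.964 from limma).

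Among the BH3-only transcripts, Bcl2l11, which encodes BIM, the main killer of cytokine-starved and self-reactive T cells, had 8.61, 8.59 and 8.59 in the B6-ChrYSJL pools, against 8.54, 8.54 and 8.62 in the B6 pools. The B6-ChrYSJL pools lay inside the range of the B6 pools. The log2 fold change was 0.03 (standard error 0.06, 95% interval −0.11 to 0.17, adjusted p = 0.894 from limma). BIM is made in several splice forms, which 1 value per transcript cluster does not separate.

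Bid encodes the protein that caspase-8 cuts to carry a death receptor signal to the mitochondria. It had 7.14, 7.26 and 7.33 in the B6-ChrYSJL pools, against 7.08, 7.05 and 7.16 in the B6 pools, and the strains overlapped through B6-ChrYSJL replicate 1 and B6 replicate 3. The log2 fold change was 0.15 (standard error 0.07, 95% interval −0.02 to 0.32, unadjusted p = 0.0737 and adjusted p = 0.517 from limma). With a pool left out it ranged between 0.11 without B6-ChrYSJL replicate 3 (unadjusted p = 0.227, limma) and 0.20 without B6-ChrYSJL replicate 1 (unadjusted p = 0.0303 and adjusted p = 0.490, limma), the one of the 6 such fits with an unadjusted p under 0.05.

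Bbc3, which encodes PUMA, a p53 target that also responds to cytokine loss, had 7.364, 7.243 and 7.319 in the B6-ChrYSJL pools, against 7.175, 7.141 and 7.239 in the B6 pools. All B6-ChrYSJL pools were above all B6 pools, with 0.0046 between the nearest. The log2 fold change was 0.12 (standard error 0.07, 95% interval −0.03 to 0.28, unadjusted p = 0.0984 and adjusted p = 0.545 from limma). With each array centred on its median the Bbc3 values overlapped, while those of Bcl2 and Bcl2l1 did not.

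Bad encodes a binder of BCL2 and BCL-xL that growth factor kinases switch off by phosphorylation. It had 7.46, 7.56 and 7.46 in the B6-ChrYSJL pools, against 7.34, 7.60 and 7.56 in the B6 pools, and the B6-ChrYSJL values fell inside the B6 range. Pmaip1, which encodes NOXA, a partner of MCL1, had 6.91, 6.83 and 7.11 in the B6-ChrYSJL pools, against 6.83, 7.08 and 6.97 in the B6 pools, with values that interleaved. Their log2 fold changes were −0.01 each, with 95% intervals of −0.20 to 0.19 for Bad and −0.23 to 0.21 for Pmaip1 (adjusted p = 0.983 and 0.977 from limma), and the sign of either turned when single pools were left out.

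**Figure D2:**
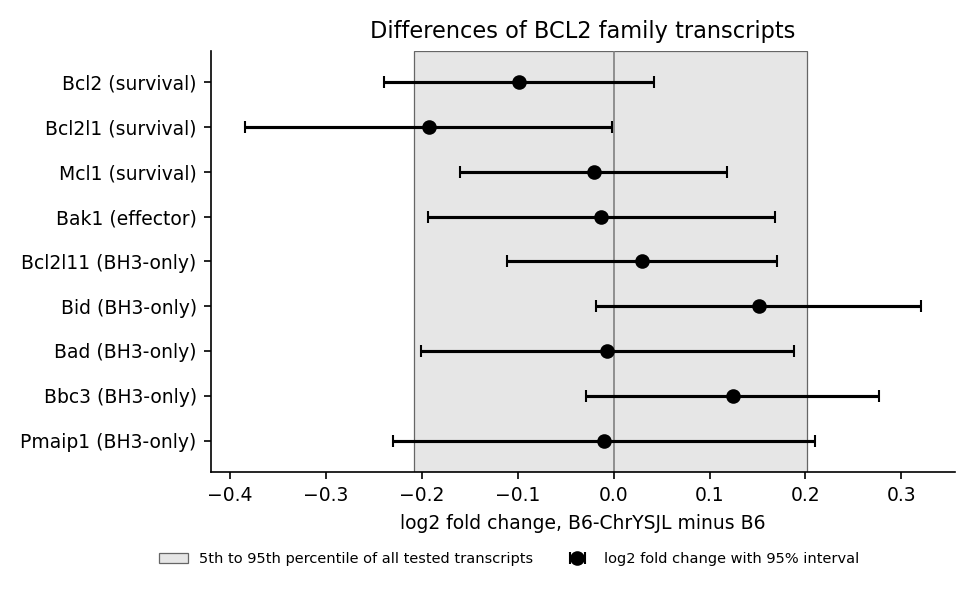
Log2 fold change, B6-ChrYSJL minus B6 (horizontal axis), of the 9 transcripts, with 95% intervals from limma as bars; the grey band holds the 5th to the 95th percentile of all tested clusters, −0.21 to 0.20. All 9 points lie within the band, and the interval of Bcl2l1, which ends at −0.0015, is the one that does not cross 0.

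By role, the survival transcripts had a median log2 fold change of −0.10 over 3 genes and the BH3-only transcripts one of 0.03 over 5. Averaged over the genes of a role, each first centred on its own mean of the 6 arrays, the survival transcripts stood at −0.11, −0.02 and −0.02 in the B6-ChrYSJL pools, against 0.09, −0.0012 and 0.07 in the B6 pools. These averages did not overlap, but B6 replicate 2 was 0.02 from the nearest B6-ChrYSJL pool. The BH3-only average was 0.0067, 0.0076 and 0.07 in the B6-ChrYSJL pools, against −0.10, −0.0077 and 0.02 in the B6 pools, and overlapped. The roles were compared after the single genes had been seen, and the averages are given as a description with no test.

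No pool was high or low throughout the family. B6 replicate 3 was above the 6-array mean for 7 of the 9 genes and B6 replicate 1 and B6-ChrYSJL replicate 1 for 2 each, and the lowest value of a gene fell in B6 replicate 1 or in B6-ChrYSJL replicate 1 for 3 genes each. The members differed in how tightly the pools of one strain agreed. For Mcl1, Bcl2l11 and Bcl2 the SD among pools of one strain, pooled over both, was 0.028, 0.030 and 0.031 on the log2 scale, and 3.43%, 4.47% and 4.59% of the 14394 clusters above background had a smaller one. It was 0.056 for Bbc3, 0.079 for Bid, 0.093 for Bak1, 0.105 for Bcl2l1 and 0.108 for Bad, around the median of 0.090 over clusters above background, and 0.135 for Pmaip1, above 79.6% of them. Signal strength and spread were not separated in this ranking.

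**Figure D3:**
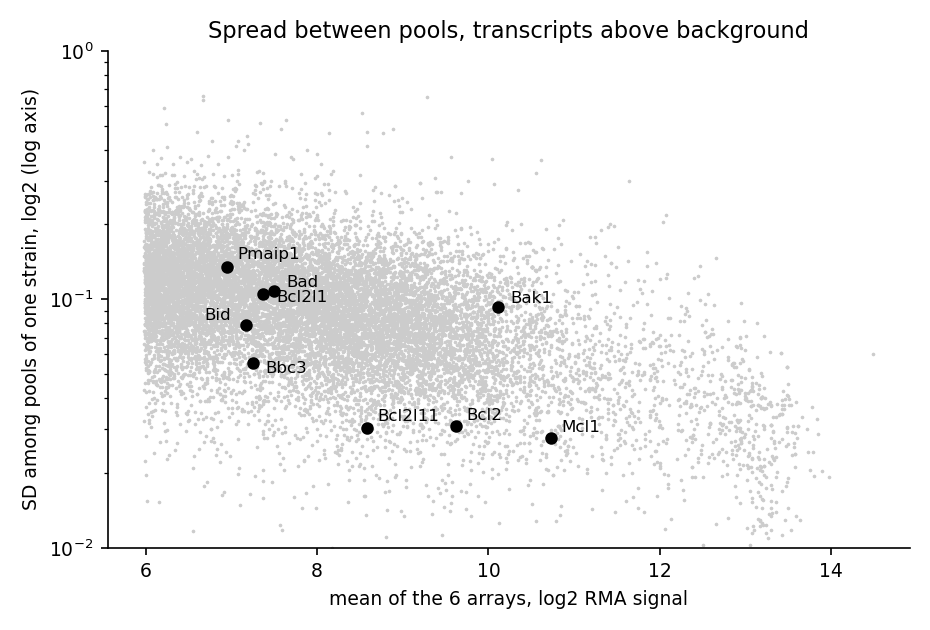
SD among pools of one strain, pooled over the strains (vertical log axis), against the mean log2 RMA signal of the 6 arrays (horizontal axis) for clusters above background (grey) and the 9 BCL2 family transcripts (black). Bcl2l11, Bcl2 and Mcl1 lie along the lower edge of the cloud at 0.028 to 0.031, and Pmaip1 lies highest of the family at 0.135.

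Other genes of the family were taken from a list of 16, of which 13 had a named cluster and 9 averaged above background. Of the 13, 2 were higher in B6-ChrYSJL at an unadjusted p under 0.05 and 0 were lower, against 4.69% and 5.92% of all clusters, none passed the adjusted threshold in limma, and the median log2 fold change was −0.01. Bok, a relative of BAX and BAK, had 6.62, 6.53 and 6.74 in the B6-ChrYSJL pools, against 6.27, 6.46 and 6.22 in the B6 pools. Every B6-ChrYSJL pool was above every B6 pool, at a signal not far above background, and the log2 fold change was 0.32 (standard error 0.09, unadjusted p = 0.00708, adjusted p = 0.344, limma). Bcl2a1c, a copy of the survival gene A1, which NF-kappaB induces in activated lymphocytes, had 7.13, 7.34 and 7.49 in the B6-ChrYSJL pools, against 7.05, 7.10 and 7.10 in the B6 pools (log2 fold change 0.24, standard error 0.09, unadjusted p = 0.0351, adjusted p = 0.441, limma). The A1 copies are nearly identical and 3 further clusters carry the symbols of several of them, so the signal cannot be assigned to 1 copy. Bnip3l, which marks mitochondria for removal, was 11.5 in each strain in the brighter of its 2 clusters.

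Downstream of the mitochondria, 20 of 22 listed genes of the apoptosome, the caspases and their inhibitors had a named cluster, all above background. At an unadjusted p under 0.05, 1 of the 20 was lower and 0 were higher, against 5.92% and 4.69% of all clusters. It was Htra2, a mitochondrial protease that is released on permeabilization and cuts caspase inhibitors. It had 7.90, 7.86 and 7.70 in the B6-ChrYSJL pools, against 8.01, 8.11 and 8.07 in the B6 pools. The groups were apart by 0.11, and the log2 fold change was −0.24 (standard error 0.08, unadjusted p = 0.0118, adjusted p = 0.368, limma). The median over the 20 was −0.02. Apaf1, the scaffold of the apoptosome, was at −0.0047, Casp9, the caspase it activates, at −0.08, and Xiap, which blocks active caspases, at −0.02.

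Of 26 listed regulators of the family, 22 had a named cluster, all above background. Of these 4 (18.2%) were lower at an unadjusted p under 0.05, against 7.16% of clusters above background and 5.92% of all clusters. The list was chosen with earlier results of these data known, and whether its share exceeds those was not tested. None was higher at that threshold and none passed the adjusted one in limma, and the median was −0.04, against −0.02 over clusters above background. Btrc, a ubiquitin ligase subunit that marks inhibitors of NF-kappaB and, in human cells, MCL1 for destruction, had 7.32, 7.57 and 7.46 in the B6-ChrYSJL pools, against 7.74, 7.74 and 7.83 in the B6 pools (log2 fold change −0.32, standard error 0.08, unadjusted p = 0.00394, adjusted p = 0.319, limma). Huwe1, another ligase of MCL1, had 9.99, 9.96 and 9.83 in the B6-ChrYSJL pools, against 10.13, 10.05 and 10.16 in the B6 pools (−0.19, unadjusted p = 0.0311, adjusted p = 0.433, limma). Neither pair of groups overlapped, while Usp9x, which removes ubiquitin from MCL1 in human cells, was at −0.02.

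The other named regulators lie on the cytokine side. Pim1, a kinase that cytokines induce and that phosphorylates BAD, had 9.20, 9.19 and 9.21 in the B6-ChrYSJL pools, against 9.44, 9.29 and 9.54 in the B6 pools (log2 fold change −0.22, standard error 0.08, unadjusted p = 0.0198, adjusted p = 0.4, limma). Il2rb, the chain shared by the IL-2 and IL-15 receptors, had 9.89, 9.80 and 9.91 in the B6-ChrYSJL pools, against 9.99, 10.09 and 10.05 in the B6 pools (−0.18, unadjusted p = 0.0294, adjusted p = 0.425, limma). Both sets of values were without overlap. Il7r, the receptor chain through which resting T cells receive their main survival signal, was 11.4 in each strain (log2 fold change 0.0024, standard error 0.07), and Foxo1 and Foxo3, transcription factors of quiescent cells of which FOXO3 can induce Bcl2l11, were at 0.10 and −0.04.

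Markers of T cell states differed between the same pools. The lists were chosen with earlier results of these data known, so their counts are a description and not independent support. All 6 activated or memory markers were lower in B6-ChrYSJL at an unadjusted p under 0.05 and without overlap. Their list mean was 8.34 to 8.54 in the B6-ChrYSJL pools, against 8.91 to 9.01 in the B6 pools. Over all clusters, 5.92% were lower and 4.69% higher at this unadjusted threshold, and 9.42% were lower without overlap. Of 5 regulatory T cell markers, 3 were lower at that threshold, Itgae also past the adjusted one (limma), and the list mean was 8.77 to 8.86 in the B6-ChrYSJL pools, against 9.07 to 9.19 in the B6 pools. Both CD8 markers were lower at the unadjusted threshold (list mean 7.03 to 7.18 in B6-ChrYSJL, against 7.42 to 7.62 in B6). At that threshold 3 of 5 stromal markers were higher (7.28 to 7.36 in B6-ChrYSJL, against 7.18 to 7.22 in B6). Of 7 B cell markers 2 were higher, H2-Ab1 and H2-Eb1, each with strains that overlapped. Ms4a1, Cd79a, Cd79b, Cd74 and Ly6d did not pass that threshold, but all 7 log2 fold changes were positive, with a median of 0.23. The B cell list means overlapped (6.58 to 7.18 in B6-ChrYSJL, against 6.56 to 6.67 in B6). With each gene centred on its mean of the 6 arrays, the B cell average was −0.19, 0.21 and 0.41 in the B6-ChrYSJL pools. It was −0.21, −0.13 and −0.10 in the B6 pools. The 4 naive markers measured overlapped (11.24 to 11.30 in B6-ChrYSJL, against 11.25 to 11.26 in B6). In sorted pools, fewer cells of a state and less RNA per cell cannot be told apart, and the part of these states in the values of Bcl2l1, Bcl2a1c, Bok, Pim1, Il2rb and the other transcripts named here was not tested.

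**Figure D4:**
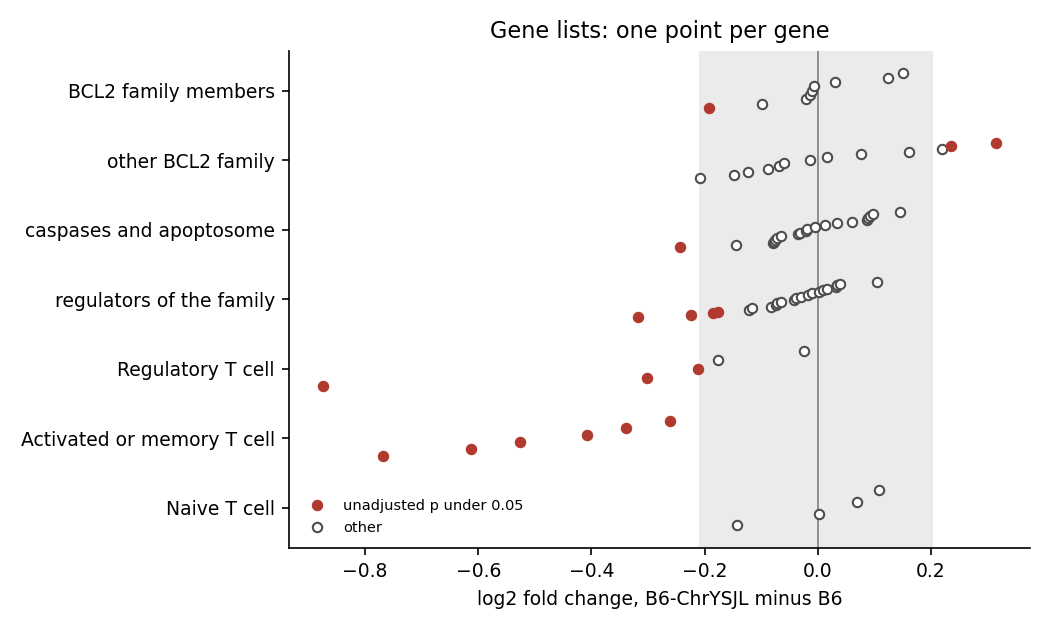
Log2 fold change, B6-ChrYSJL minus B6 (horizontal axis), of each measured gene in the BCL2 family, in 3 lists around it and in 3 lists of T cell states; filled points have an unadjusted p under 0.05 in limma, and the grey band is the 5th to the 95th percentile of all tested clusters. The 9 family members lie between −0.19 and 0.15, and the activated or memory markers between −0.77 and −0.26.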

How the data were processed

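The authors processed the array signals with RMA in Partek Genomic Suites (background correction, quantile normalization, median polish over probes). Each deposited value is the log2 signal of 1 cluster on 1 array. GCOS and mm9 also appear in the submitters' processing notes. RMA makes the arrays' probe distributions equal before probes are combined, so a change shared by most transcripts would largely not be seen. The deposited cluster values were close but not equal, with array medians of 6.41 to 6.44. These log2 values were used as deposited. Clusters took the gene symbols of the platform annotation, brought up to date with RefSeq (GRCm38.p6) by gene identifier, and the brightest cluster of a gene was kept. Of the 23410 clusters tested, 1621 had several symbols and were not named. Background was set so that 95% of 1205 odorant and vomeronasal receptor clusters averaged below it. The fit used limma 3.58.1 in R 4.3.3 (lmFit, eBayes, no block), and figures Python 3.11.15 with matplotlib 3.10.9. The fit was tested on simulated data with planted changes larger than any seen in the members, which does not show whether changes of their size would be found. No array columns were identical, and the pools, which the methods call biological replicates, served as such. The number of arrays limits the precision. Members and lists were chosen with earlier results of these data known. Named are all members, list genes at an unadjusted p under 0.05, and the first-listed marker of some cell types. Cd4, Itgae, the other natural killer and myeloid markers, and the CD8, B cell and stromal markers were named after their values were seen. So were Bnip3l, Apaf1, Casp9, Xiap, Usp9x, Il7r, Foxo1 and Foxo3.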

Additional observations from a re-analysis of the deposited data

How the results depend on the processing

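No member passed an adjusted p of 0.05 under any of the 16 alternatives run for each (other variance models, filters, normalizations, array weights, the replicate block, the mean of a gene's clusters, which changes nothing with 1 cluster each, and each array left out). The count over all clusters, 4, was 55 with an intensity trend, 13 over clusters above background, 11 with each array centred on its median, 2 after quantile normalization once more, 0 in the unmoderated linear model and 0 over all deposited clusters, and 0 to 7 with an array left out (0 without B6-ChrYSJL replicate 1, B6-ChrYSJL replicate 2 or B6 replicate 2, 1 without B6-ChrYSJL replicate 3, 2 without B6 replicate 1, 7 without B6 replicate 3); 2274 and 3435 clusters had an unadjusted p under 0.05 in the unmoderated model and over all deposited clusters. The count of members at an unadjusted p under 0.05, 1 (Bcl2l1), was 0 over all deposited clusters, 0 after quantile normalization once more and 0 with the replicate block. With an array left out it was 0 to 1, the gene being Bid without B6-ChrYSJL replicate 1 and Bcl2l1 without B6 replicate 2. In the unmoderated linear model it was again 1, but the gene was Bcl2 and not Bcl2l1. Members without overlap, 3, were 2 with each array centred on its median and 3 after quantile normalization once more. With an array left out they were 3 to 5, the 5 being without B6 replicate 3. Groups separate more easily with fewer pools, and no share over all clusters was taken for these fits. The log2 fold changes of Bcl2, Bcl2l1, Mcl1, Bcl2l11, Bid and Bbc3 kept their sign under all 16. That of Bad was 0.0032 after quantile normalization once more and −0.087 to 0.044 with an array left out, that of Pmaip1 was 0.018 with array weights and −0.088 to 0.050 with an array left out, and that of Bak1 was −0.084 to 0.042 with an array left out. The cause of these changes was not tested. In the labels, replicates of the strains share only a number, and whether same-numbered pools were handled together is not given. Correlations of same-numbered deviations were −0.0001, −0.04 and −0.02, against −0.04 to 0.05 for the other pairs.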
